A study of Mus musculus with 6 samples.

Results

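The ZFP36, BTG and TOB mRNA decay factors were followed in RNA-seq of C2C12 cells, a mouse myoblast line that proliferates in serum and can fuse into myotubes. The 10 genes were taken by symbol from a deposited table of 22375 genes. They were Zfp36, Zfp36l1 and Zfp36l2, the RNA-binding proteins Elavl1 and Khsrp, Btg1, Btg2 and Btg3, and Tob1 and Tob2. The CON group was 3 libraries of cells left without stretching, and the 4H group was 3 libraries of cells stretched cyclically at 15% elongation for 4 h on elastic plates. Both groups were cells of the same purchased line, seeded close to confluence in medium with serum, penicillin and streptomycin. No allele and no other drug is named for either. Such a line is a culture model and holds none of the other cells of a muscle. The comparison addressed which transcripts had changed by the end of the stretch. The labels number the libraries as biosamples but do not say that they came from separate cultures, so the p-values measure the spread between these samples only.

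Decay of most mRNAs starts with shortening of the poly(A) tail by the CCR4-NOT complex, followed by removal of the cap and digestion of the body. ZFP36 (tristetraprolin) and its paralogs bind AU-rich elements in the 3′ untranslated region (3′ UTR) through tandem zinc fingers and bring CCR4-NOT to the message, while ELAVL1 (HuR) binds similar elements and is best known for stabilising them. BTG and TOB proteins bind the CNOT7 and CNOT8 deadenylases through a shared BTG domain, speed up tail shortening and slow proliferation, and several of them are themselves short-lived products of stress and growth signals. In muscle precursors, the ZFP36 and KHSRP proteins are known to bind the messages of myogenic regulators.

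The 3′ UTRs of 6 of the 10 members carry the element that the ZFP36 proteins read. In the longest coding transcript of GENCODE M21, the heptamer TATTTAT occurred 3 times each in Zfp36, Zfp36l1 and Zfp36l2, 8 times in Elavl1, and 1 time each in Btg2 and Tob2. It was not found in those of Khsrp, Btg1, Btg3 and Tob1. At least 1 heptamer was found in 30.5% of the 11366 tested genes with an annotated 3′ UTR. The nonamer, a heptamer with a further T on each side, was present in Zfp36, Zfp36l1, Zfp36l2 and Elavl1 against 8.24% of those genes. 1 site of each of the 4 members that rose most is shown 5′ to 3′ with its neighbours and the heptamer in capitals, on the GRCm38 build, to which the build named in the submitters' processing notes (mm10) corresponds.
Zfp36: atgacgacttTATTTATtgtattaaga (chr7:28376952-28376978, minus strand)
Zfp36l1: actgttggatTATTTATtttagaaatt (chr12:80108168-80108194, minus strand)
Zfp36l2: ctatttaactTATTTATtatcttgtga (chr17:84184915-84184941, minus strand)
Btg2: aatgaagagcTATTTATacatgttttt (chr1:134077250-134077276, minus strand)
The 3 ZFP36 sites had a T on both sides of the heptamer and so held the nonamer, while the Btg2 site held the heptamer alone.

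Upstream sequences of 9 of the 10 members were present in the RefSeq promoter table (GRCm38.p6), and Zfp36l2 was not matched. The 250 bases before the start of Zfp36l1 and Btg2, which rose most, and of Btg1, whose level was nearly the same in both groups, are shown with matches to the TATA box (TATAAA), the CCAAT box (CCAAT) and the cAMP response element (TGACGTCA) in capitals, on either strand.
Zfp36l1: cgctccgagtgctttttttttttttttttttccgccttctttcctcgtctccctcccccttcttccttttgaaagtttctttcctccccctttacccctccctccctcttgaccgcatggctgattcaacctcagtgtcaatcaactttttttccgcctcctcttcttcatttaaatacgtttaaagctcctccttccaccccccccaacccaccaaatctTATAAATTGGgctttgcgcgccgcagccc (chr12:80113014-80113263, minus strand)
Btg2: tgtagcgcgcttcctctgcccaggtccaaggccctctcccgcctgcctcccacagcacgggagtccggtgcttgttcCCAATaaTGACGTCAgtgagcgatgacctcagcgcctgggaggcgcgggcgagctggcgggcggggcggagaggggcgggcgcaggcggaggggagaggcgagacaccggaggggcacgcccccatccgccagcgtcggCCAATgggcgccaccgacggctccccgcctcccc (chr1:134079156-134079405, minus strand)
Btg1: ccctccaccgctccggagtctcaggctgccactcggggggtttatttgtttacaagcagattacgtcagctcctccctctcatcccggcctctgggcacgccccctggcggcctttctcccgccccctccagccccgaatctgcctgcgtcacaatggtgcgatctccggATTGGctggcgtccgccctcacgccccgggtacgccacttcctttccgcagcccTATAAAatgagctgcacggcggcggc (chr10:96616751-96617000, plus strand)
The Btg2 window held the full cAMP response element, beginning at position -166 from the start, behind a CCAAT box at -173. The same 8 letters occurred in 1.79% of the 32851 promoters of the table. Of the windows shown, the TATA box was found at -29 in Zfp36l1 and at -26 in Btg1, and in 13.6% of all promoters. The CCAAT box was found in all 3 windows and in 37.4% of promoters. In the Zfp36l1 window the TATA box and a CCAAT box read from the other strand share 1 base.

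Zfp36 was the member whose window held a CArG box, the site read by serum response factor, and an EGR site (GCGGGGGCG or GCGTGGGCG). These were present in 1.63% and 3.47% of promoters, and both are shown in capitals with the neighbouring bases. GENCODE M21 places both inside the first exon of a longer Zfp36 transcript, in the 5′ UTR.
Zfp36, CArG box: ccaggccgccCCATAAAAGGagaaagctcc (chr7:28379267-28379296, minus strand)
Zfp36, EGR: gagctacgccGCGGGGGCGcgtcccggaa (chr7:28379315-28379343, minus strand)
No member's window held the AP-1 site (TGACTCA or TGAGTCA, found in 5.2% of promoters), the E-box CACGTG (7.15%) or the TEAD letters GGAATG (14.7%) on either strand. A match is a run of letters and not a measured binding site.

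Levels are given in FPKM (fragments per kilobase of transcript, scaled to library size), which is per length and allows levels of different genes to be set side by side. Changes are log2 fold changes of FPKM + 0.5, 4H against CON, from limma, with a standard error (SE) and a p adjusted over the 11593 tested genes, those whose mean FPKM was 0.5 or more. All 10 members passed this filter on the CON level alone. Of the 10, 7 changed at an adjusted p of at most 0.05. The share of all tested genes past this threshold was 46.7%, with 22.6% higher and 24.1% lower, and among the members 6 rose and 1 fell. The CON and 4H libraries did not overlap for 8 of the 10 members, against 56.7% of all tested genes. None of the 10 reached the thresholds for a differentially expressed gene, a log2 fold change of 1 or more in size together with that adjusted p, which 450 tested genes (3.88%) did. The median log2 fold change was 0.20 over the members and -0.01 over all tested genes.

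**Figure D1:**
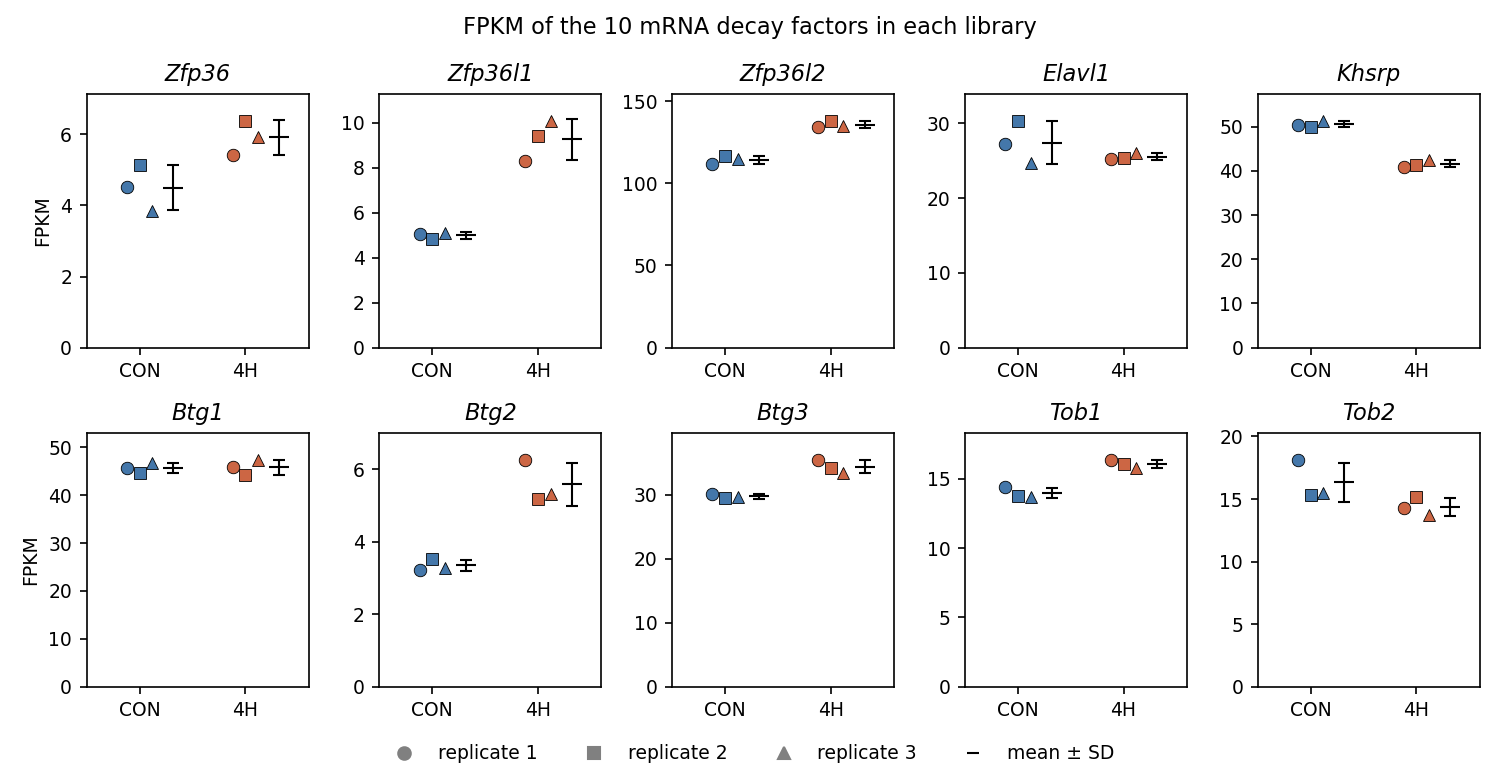
FPKM (y axis, from 0, a separate scale for each gene) of the 10 members in the CON and 4H libraries; the marker shape gives the replicate number, and the bar beside each group is the mean ± SD of 3 libraries. Every 4H library lies above every CON library for Zfp36, Zfp36l1, Zfp36l2, Btg2, Btg3 and Tob1, and below for Khsrp and Tob2.

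The 6 libraries showed the identity that the labels give. Of 5 myoblast markers, 4 reached a mean of 0.5 FPKM and Pax7 did not, and the sum of all 5 ranged from 100 to 101 FPKM in CON and from 127 to 133 FPKM in 4H. Of these 4, Myod1, Des and Cdh15 were higher in 4H and Myf5 was lower. Myotube markers summed to 0.75 to 1.06 FPKM in CON and 0.994 to 1.2 in 4H, but they did not move together. Mymk had a mean of 0.525 FPKM in CON and 1.01 in 4H, and Myh4 0 and 0.0130. The other means were lower in 4H, with Myog at 0.217 and 0.0265 FPKM, Myh3 at 0.0760 and 0.0628, Myh1 at 0.0531 and 0, and Ckm at 0.0143 and 0. The 3 endothelial markers summed to at most 0.261 FPKM, with 0.057 to 0.112 in CON and 0.146 to 0.261 in 4H. The 3 leukocyte markers summed to 0 in CON and at most 0.0252 in 4H, with Ptprc and Adgre1 at 0 in all libraries. Epithelial markers summed to 0.0401 to 0.117 FPKM in CON and 0.282 to 0.553 in 4H, with Epcam at 0, and adipocyte markers to 0 to 0.111 and 0.311 to 0.707, with Plin1 at 0. The libraries had 14125 to 14186 genes above 0 in CON and 14899 to 14972 in 4H, and FPKM sums of 395790 to 397260 in CON and 385146 to 387516 in 4H. The part of these differences in the members' changes was not tested. Within a group the libraries correlated at r from 0.9915 to 0.9928 on the log2 scale over genes, and between groups at 0.9666 to 0.9695. From bulk RNA, fewer cells expressing a gene and less RNA per cell cannot be told apart.

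The 3 ZFP36 paralogs all rose, and they did so from very different levels. Zfp36l1 changed most among the members, Zfp36l2 added the most transcript, and Zfp36, the founding gene of the family, changed least firmly.

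Zfp36l1 (ENSMUSG00000021127, chr12:80107754-80113013, minus strand) encodes a zinc finger protein that shares its targets with tristetraprolin. It was at 5.06, 4.82 and 5.11 FPKM in CON replicates 1, 2 and 3 and at 8.29, 9.44 and 10.1 FPKM in 4H replicates 1, 2 and 3. All 3 stretched libraries were well above the 3 CON libraries, and the closest pair differed by 3.18 FPKM. The mean went from 5.00 ± 0.155 to 9.27 ± 0.914 FPKM (SD, n = 3), a ratio of 1.85. The log2 fold change was 0.83 (SE 0.08, adjusted p = 8.62e-05 in limma), and it lay between 0.77 and 0.90 over 17 alternative settings and at 0.74 (adjusted p = 0.009 in limma) with a block by title number. Its exons share 1672 bases with Gm26669 on the other strand. No value was found for that gene under this symbol. The libraries were strand-specific, but no source used here says whether reads were counted by strand, so reads of the pair could not be told apart.

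Zfp36l2 (ENSMUSG00000045817, chr17:84183931-84187947, minus strand), another paralog with the same zinc fingers, was the most abundant member. Its level was 111.5, 116.5 and 114.8 FPKM in CON and 134.0, 138.0 and 134.5 FPKM in 4H. The 2 groups were apart by 17.4 FPKM at their closest libraries. The mean rose from 114.3 ± 2.58 to 135.5 ± 2.20 FPKM (SD, n = 3), with a log2 fold change of 0.25 (SE 0.03, adjusted p = 0.000272 in limma).

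Zfp36 (ENSMUSG00000044786, chr7:28376784-28380253, minus strand) encodes tristetraprolin itself. The CON libraries were at 4.51, 5.13 and 3.86 FPKM and the 4H libraries at 5.43, 6.38 and 5.93 FPKM. All stretched libraries were higher, but by as little as 0.296 FPKM. The mean was 4.50 ± 0.637 FPKM in CON and 5.91 ± 0.479 FPKM in 4H (SD, n = 3), a ratio of 1.31. The log2 fold change of 0.36 (SE 0.11) had an adjusted p of 0.024 in limma. The call was lost without CON replicate 1 (0.37, adjusted p = 0.0566), without CON replicate 3 (0.27, adjusted p = 0.07), without 4H replicate 2 (0.31, adjusted p = 0.0771) and without 4H replicate 3 (0.36, adjusted p = 0.0603) in the same limma fit. A share of 1.03% of its 75-base stretches recurs in S100a7a, which went from 4.25 ± 0.852 to 9.85 ± 0.845 FPKM, and the part of this in the Zfp36 value was not tested.

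Set together, the summed FPKM of the 3 ZFP36 genes was 123.8 ± 2.73 in CON and 150.7 ± 3.08 in 4H, a ratio of 1.22. Of the added 26.9 FPKM, 21.2 FPKM came from Zfp36l2, 4.27 FPKM from Zfp36l1 and 1.41 FPKM from Zfp36. Zfp36l2 made up 92.3 ± 0.370% of the sum in CON and 89.9 ± 0.702% in 4H, and Zfp36l1 4.04 ± 0.200% and 6.15 ± 0.547%. The share of Zfp36 was 3.63 ± 0.477% in CON and 3.92 ± 0.238% in 4H, with overlapping libraries.

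Elavl1 and Khsrp, which bind overlapping sets of AU-rich messages, did not follow the ZFP36 genes upward. Khsrp fell and Elavl1 did not pass the test.

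Khsrp (ENSMUSG00000007670, chr17:57021051-57031522, minus strand) encodes KSRP, a KH-domain protein that brings deadenylase and exosome to AU-rich messages and also takes part in microRNA processing. Its CON libraries were at 50.5, 49.9 and 51.4 FPKM and its 4H libraries at 40.9, 41.4 and 42.5 FPKM. The ranges were narrow and 7.46 FPKM apart. The mean fell from 50.6 ± 0.723 to 41.6 ± 0.784 FPKM (SD, n = 3), with a log2 fold change of -0.28 (SE 0.03, adjusted p = 0.000239 in limma).

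Elavl1 (ENSMUSG00000040028, chr8:4285382-4325413, minus strand) was at 27.2, 30.4 and 24.7 FPKM in CON and at 25.2, 25.4 and 26.0 FPKM in 4H. The stretched libraries lay inside the wider CON range. The means were 27.4 ± 2.84 and 25.6 ± 0.430 FPKM (SD, n = 3), with a log2 fold change of -0.10 (SE 0.07, adjusted p = 0.299 in limma). It was -0.02 without CON replicate 2 (adjusted p = 0.788 in limma) and -0.17 without CON replicate 3 (adjusted p = 0.0557 in limma). Its message carries the most heptamers of the 10 members.

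The 3 BTG genes separated. Btg2 rose, Btg3 rose by less, and Btg1 gave nearly the same mean in both groups.

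Btg2 (ENSMUSG00000020423, chr1:134075170-134079120, minus strand) is an early response gene and a known target of p53 whose protein slows the cell cycle. Its level was 3.23, 3.52 and 3.29 FPKM in CON and 6.27, 5.18 and 5.32 FPKM in 4H. The highest 4H library was replicate 1, and even the lowest was 1.66 FPKM above the CON libraries. The mean rose from 3.35 ± 0.154 to 5.59 ± 0.592 FPKM (SD, n = 3), a ratio of 1.67. The log2 fold change was 0.66 (SE 0.09, adjusted p = 0.000537 in limma), with 0.58 to 0.74 over 16 alternative settings. In CON it had the lowest level of the 10 members, and in 4H its libraries overlapped those of Zfp36. None of its exonic sequence recurs in or overlaps another annotated gene.

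Btg3 (ENSMUSG00000022863, chr16:78332637-78377192, minus strand), a family member that also binds the deadenylases, was at 30.2, 29.5 and 29.6 FPKM in CON and at 35.5, 34.2 and 33.5 FPKM in 4H. The groups were 3.28 FPKM apart. The mean rose from 29.8 ± 0.383 to 34.4 ± 1.02 FPKM (SD, n = 3), with a log2 fold change of 0.21 (SE 0.04, adjusted p = 0.00263 in limma). Its value is uncertain, since 12.4% of its 75-base stretches recur in Gm7334 and 695 exonic bases overlap Cxadr on the other strand. Cxadr, a cell adhesion receptor, was at 4.45 ± 0.271 FPKM in CON and 2.67 ± 0.0716 FPKM in 4H, the opposite direction to Btg3.

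Btg1 (ENSMUSG00000036478, chr10:96617006-96622809, plus strand), a factor linked to quiescence, was at 45.7, 44.7 and 46.8 FPKM in CON and at 45.9, 44.3 and 47.4 FPKM in 4H. The ranges of the 2 groups overlapped almost wholly. The means were 45.8 ± 1.04 and 45.9 ± 1.56 FPKM (SD, n = 3), and the log2 fold change was 0.00 (SE 0.04, adjusted p = 0.947 in limma), with a sign that changed between settings. The summed FPKM of the 3 BTG genes was 78.9 ± 1.02 in CON and 85.9 ± 2.01 in 4H. Btg1 made up 58.0 ± 0.623% of it in CON and 53.4 ± 1.39% in 4H, Btg3 37.7 ± 0.524% and 40.1 ± 1.09%, and Btg2 4.25 ± 0.248% and 6.50 ± 0.560%.

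Tob1 and Tob2 encode proteins that join the deadenylases to poly(A)-binding protein. Tob1 rose, and Tob2 did not pass the test.

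Tob1 (ENSMUSG00000037573, chr11:94211454-94215495, plus strand) was at 14.4, 13.8 and 13.7 FPKM in CON and at 16.4, 16.0 and 15.8 FPKM in 4H. The 4H libraries were all higher, by at least 1.40 FPKM. The mean rose from 13.9 ± 0.371 to 16.1 ± 0.301 FPKM (SD, n = 3), with a log2 fold change of 0.20 (SE 0.05, adjusted p = 0.00831 in limma). With a block by title number the call was lost (0.20, adjusted p = 0.0701 in limma).

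Tob2 (ENSMUSG00000048546, chr15:81848272-81858796, minus strand) was at 18.1, 15.3 and 15.5 FPKM in CON and at 14.3, 15.1 and 13.7 FPKM in 4H. The 4H libraries were all lower, but the closest pair differed by 0.170 FPKM and CON replicate 1 stood above the others. The means were 16.3 ± 1.58 and 14.4 ± 0.720 FPKM (SD, n = 3), and the log2 fold change of -0.17 (SE 0.07) had an adjusted p of 0.0875 in limma. Without CON replicate 1 it was -0.10 (adjusted p = 0.244 in limma). The sum of both genes was 30.3 ± 1.94 FPKM in CON and 30.5 ± 0.876 FPKM in 4H. Tob1 was 46.1 ± 1.70% of this sum in CON and 52.8 ± 1.15% in 4H. Tob2 was above Tob1 in every CON library and below it in every 4H library.

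**Figure D2:**
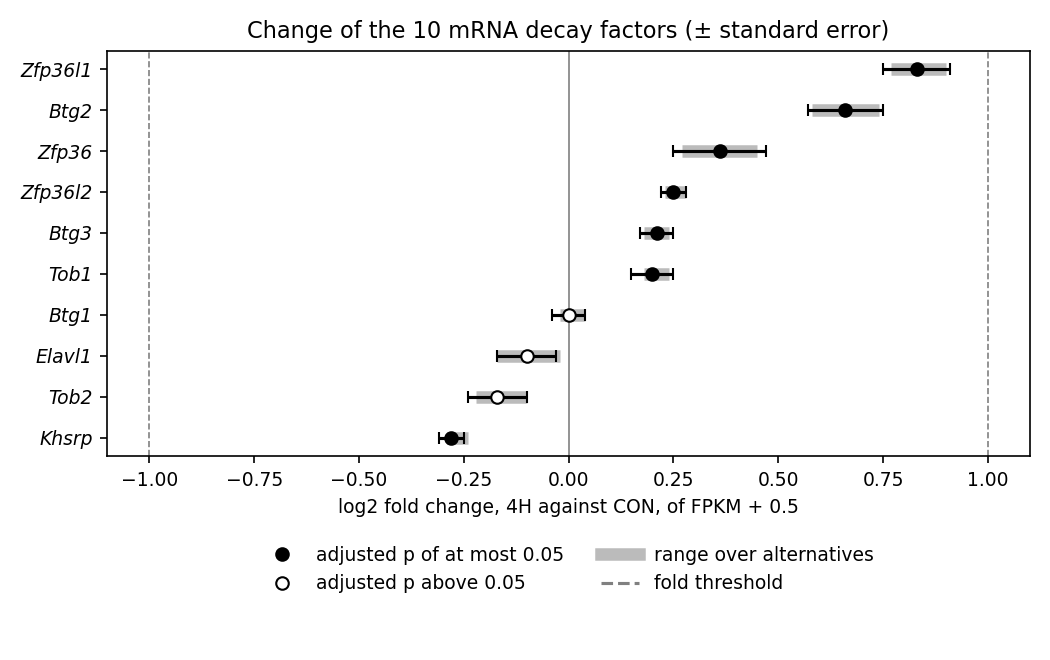
Log2 fold change of FPKM + 0.5, 4H against CON (x axis), for each member (y axis), with the standard error as a bar; filled points passed the limma test (adjusted p up to 0.05), grey bands span the alternative settings and dashed lines mark the fold threshold of 1. Zfp36l1 (0.83) and Btg2 (0.66) lie farthest to the right, Khsrp (-0.28) farthest to the left, and no member reaches a dashed line.

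The order of levels differed between the groups in 2 places. Zfp36l2 was highest, Khsrp and Btg1 followed and exchanged places in 4H, as did Tob2 and Tob1 below Btg3 and Elavl1, and Zfp36l1, Zfp36 and Btg2 came last in both. Neighbours in this order that overlapped between libraries were Btg3 with Elavl1 and Zfp36l1 with Zfp36 in CON, and Zfp36 with Btg2 in 4H. All other neighbours were apart in their 3 libraries.

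Whether paralogs moved unequally was tested on the log2 ratio of their FPKM + 0.5 in each library, over 7 pairs. The exact permutation test of 3 against 3 libraries cannot give a p under 0.1. The ratio of Zfp36l1 to Zfp36 was 0.15, -0.08 and 0.37 in CON and 0.57, 0.53 and 0.72 in 4H, a change of 0.46. The ratio of Zfp36l1 to Zfp36l2 was -4.33, -4.46 and -4.36 in CON and -3.93, -3.80 and -3.67 in 4H, a change of 0.58. In both pairs the 4H libraries lay above the CON libraries. The ratio of Zfp36 to Zfp36l2 changed by 0.12 with overlapping libraries (exact permutation p = 0.5), and was 0.02 without CON replicate 3 and 0.19 without CON replicate 2.

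The ratio of Btg2 to Btg1 was -3.63, -3.49 and -3.64 in CON and -2.78, -2.98 and -3.04 in 4H, a change of 0.66. The ratio of Btg2 to Btg3 changed by 0.45, from a mean of -2.98 to -2.52, and that of Btg3 to Btg1 by 0.20, from -0.61 to -0.41. The ratio of Tob1 to Tob2 was -0.33, -0.15 and -0.18 in CON and 0.19, 0.08 and 0.19 in 4H, a change of 0.37. In 6 of the 7 pairs the libraries of the groups did not overlap, each at the smallest exact permutation p of 0.1, which was 0.117 after adjustment over the 7 pairs. Pairs within a family share genes, so the 7 are not independent results. How often the ratios of other gene pairs separate was not computed, while 56.7% of single tested genes did not overlap between the groups.

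**Figure D3:**
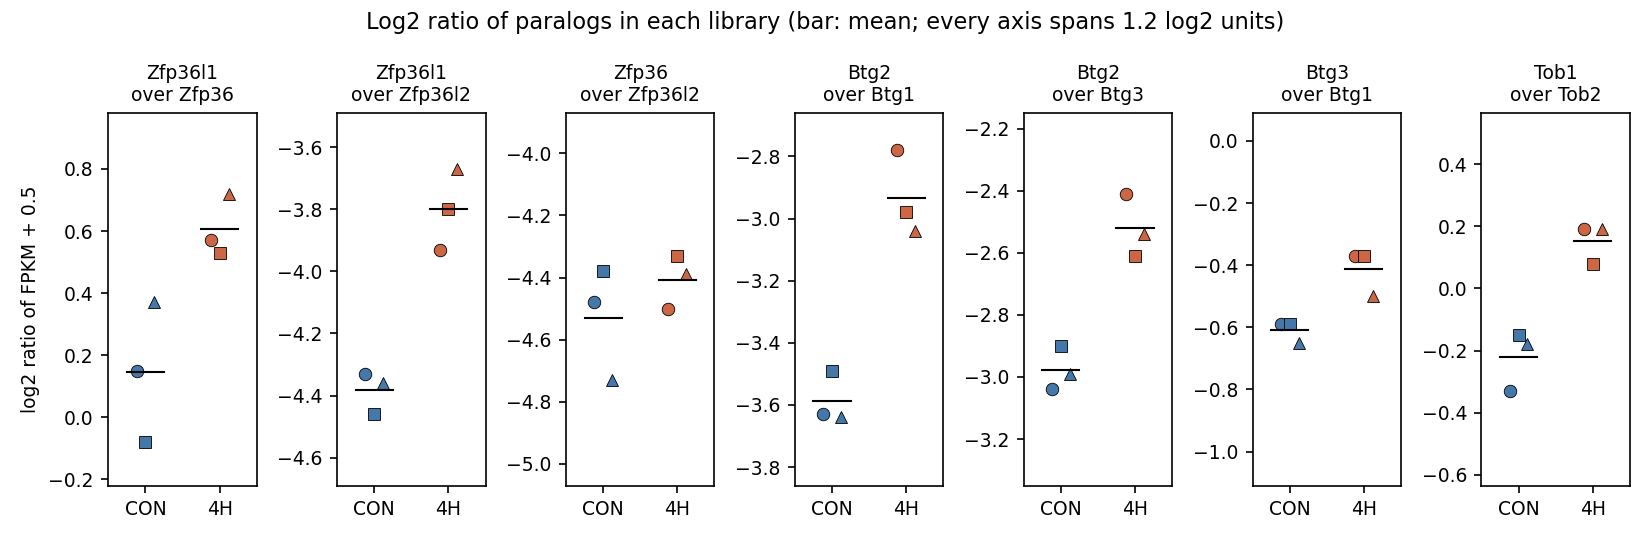
Log2 ratio of FPKM + 0.5 between paralogs (y axis, each panel spanning the same height) in the CON and 4H libraries, with a bar at each mean and marker shapes (circle, square, triangle) for replicates 1, 2 and 3. The groups are apart in every panel except Zfp36 over Zfp36l2, and Tob1 over Tob2 lies below 0 in CON and above 0 in 4H.

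The machinery that the members recruit was described by lists of genes, to be read against the 46.7% of all tested genes past the adjusted p. Fos and Dusp1 stand in more than 1 list, as do Cdkn1a, Myod1 and Myf5. Of 11 CCR4-NOT subunits tested, 1 changed. This was Cnot9, a subunit that binds tryptophan-containing partners. It fell from 38.7 ± 1.58 to 31.5 ± 0.683 FPKM (log2 fold change -0.29, SE 0.04, adjusted p = 0.000678 in limma). Its libraries were 37.3, 40.4 and 38.3 FPKM in CON and 32.0, 31.7 and 30.7 FPKM in 4H, with no overlap. It shares 134 exonic bases with Usp37 on the other strand, which also fell, from 9.14 ± 0.174 to 7.71 ± 0.199 FPKM (log2 fold change -0.23). The scaffold Cnot1 was at 75.0 ± 1.71 FPKM in CON and 71.4 ± 0.655 FPKM in 4H (adjusted p = 0.0895 in limma), and the deadenylase Cnot7, the partner of BTG and TOB proteins, at 29.6 ± 1.54 and 32.1 ± 1.31 FPKM (adjusted p = 0.0962 in limma). The list median was -0.06.

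Among 7 genes of the PAN2-PAN3 and PARN deadenylases and the poly(A)-binding proteins, 3 fell and none rose. The largest fall was in Pabpc4, a cytoplasmic poly(A)-binding protein, from 94.3 ± 2.56 to 67.2 ± 1.56 FPKM (log2 fold change -0.49, SE 0.03, adjusted p = 1.21e-05 in limma). This value is uncertain because 58.6% of its 75-base stretches recur in other annotated genes. Pabpc1, the main such protein and the partner of TOB, was at 653.2 ± 14.2 FPKM in CON and 511.4 ± 3.24 FPKM in 4H (adjusted p = 1.4e-05 in limma), and the deadenylase Parn also fell.

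Of 13 decapping genes, 3 passed the test, all lower, with a median of -0.05. Pnrc2, an adaptor that activates decapping, fell from 58.5 ± 1.10 to 37.0 ± 2.20 FPKM (log2 fold change -0.66, SE 0.05, adjusted p = 1.38e-05 in limma). Of 17 tested exonuclease and exosome genes, 5 fell, none rose and the median was -0.09. Exosc4, a core exosome subunit, fell from 19.2 ± 0.921 to 14.2 ± 0.381 FPKM (log2 fold change -0.42, SE 0.05, adjusted p = 0.000286 in limma), although 385 of its exonic bases overlap Oplah on the other strand, which also fell, from 3.79 ± 0.538 to 2.68 ± 0.653 FPKM (adjusted p = 0.0488 in limma). In these 4 lists together, 12 of 48 tested genes passed the test and all 12 were lower, a share of 25% beside 24.1% of all tested genes. In some alternative settings 1 gene of these lists was higher, a CCR4-NOT gene without CON replicate 2 and after rescaling to TPM, and a gene of the PAN, PARN and PABP list without CON replicate 3.

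Of 10 tested genes that control the ZFP36 proteins after translation, 4 rose, none fell and the median was 0.03. The p38 kinase Mapk14 was at 24.1 ± 0.645 FPKM in CON and 27.5 ± 0.846 FPKM in 4H, and Mapkapk2, which phosphorylates tristetraprolin, at 45.3 ± 1.56 and 51.9 ± 1.64 FPKM (adjusted p = 0.00713 and 0.00481 in limma). The 14-3-3 gene Ywhaz, whose protein binds phosphorylated tristetraprolin, rose from 290.3 ± 12.0 to 357.7 ± 10.9 FPKM. Dusp1, the phosphatase that switches off p38, rose most, from 16.6 ± 1.30 to 33.1 ± 2.11 FPKM (log2 fold change 0.97, SE 0.07, adjusted p = 1.26e-05 in limma). Its libraries were 18.1, 16.3 and 15.6 FPKM in CON and 30.8, 33.8 and 34.9 FPKM in 4H. The phosphorylation of the proteins was not measured.

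Messages long known to be bound by ZFP36 proteins were mostly higher. Of 20 listed, 13 were tested, 9 rose, 1 fell and 3 did not pass. The list median was 0.64, and 5 were differentially expressed, all higher. 7 of the 20, among them Tnf, the classical tristetraprolin target, were under the filter, and 2 of the 13, Il6 and Fos, passed it through the 4H libraries only. Of the 11 others, 8 rose and 1 fell, with a median of 0.64.

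The plasminogen activator Plau was at 8.42, 9.46 and 9.30 FPKM in CON and at 43.7, 39.4 and 38.4 FPKM in 4H (log2 fold change 2.10, SE 0.07, adjusted p = 1.99e-07 in limma). This was a ratio of 4.47 with no 4H library near the CON range. Ier3, an early response gene, was at 102.0, 86.7 and 96.3 FPKM in CON and at 270.9, 294.9 and 302.4 FPKM in 4H (log2 fold change 1.60, SE 0.06, adjusted p = 6.56e-07 in limma). Ptgs2, the inducible cyclooxygenase, was at 91.2, 80.4 and 85.3 FPKM in CON and at 182.9, 193.3 and 193.1 FPKM in 4H (log2 fold change 1.15, SE 0.05, adjusted p = 8.80e-07 in limma). In each of these 3 genes the lowest 4H library was well above the highest CON library.

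Lif, a cytokine that acts on muscle precursors, was low, at 0.902 ± 0.0851 FPKM in CON and 2.75 ± 0.332 FPKM in 4H (log2 fold change 1.21, SE 0.12, adjusted p = 7.98e-05 in limma). Fos, a subunit of AP-1, was lower still, at 0.185 ± 0.0539 and 1.22 ± 0.156 FPKM (log2 fold change 1.33, SE 0.14, adjusted p = 0.000149 in limma), and passed the filter only through its 4H level. Myc, a growth regulator, fell from 68.8 ± 1.77 to 49.2 ± 1.46 FPKM (log2 fold change -0.48, SE 0.04, adjusted p = 2.03e-05 in limma). The cyclin gene Ccnd1, another listed target, was at 126.7 ± 2.60 and 181.5 ± 1.66 FPKM, and Vegfa, an angiogenic factor, at 73.4 ± 2.36 and 75.1 ± 3.02 FPKM with overlapping libraries. Among the tested targets the log2 fold change ranged from -0.48 to 2.10.

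Sites of 4 of the risen targets are shown in the same way, to set their heptamers beside those of the members.
Ptgs2: tgaccatattTATTTATttatgtgaag (chr1:150105791-150105817, plus strand)
Lif: aaggggccttTATTTATtatttaaaac (chr11:4272040-4272066, plus strand)
Ier3: gtctaattaaTATTTATgtatttatgt (chr17:35822482-35822508, plus strand)
Plau: ctgctattttTATTTATatctattttt (chr14:20843318-20843344, plus strand)
Ptgs2 had 6 heptamers in its 3′ UTR, Lif 5, Ier3 4 and Plau 1, while Myc, the target that fell, had none of these letters there. The number of heptamers did not follow the change in every listed target. Plaur, the receptor of the plasminogen activator, and the chemokine gene Ccl2 had 0 heptamers and rose (log2 fold change 0.64 and 0.45, adjusted p = 3.79e-05 and 0.00428 in limma). The kinase gene Pim1 had 4 and Vegfa 3, with log2 fold changes of -0.08 and 0.03 that did not pass the test (adjusted p = 0.385 and 0.539 in limma).

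**Figure D4:**
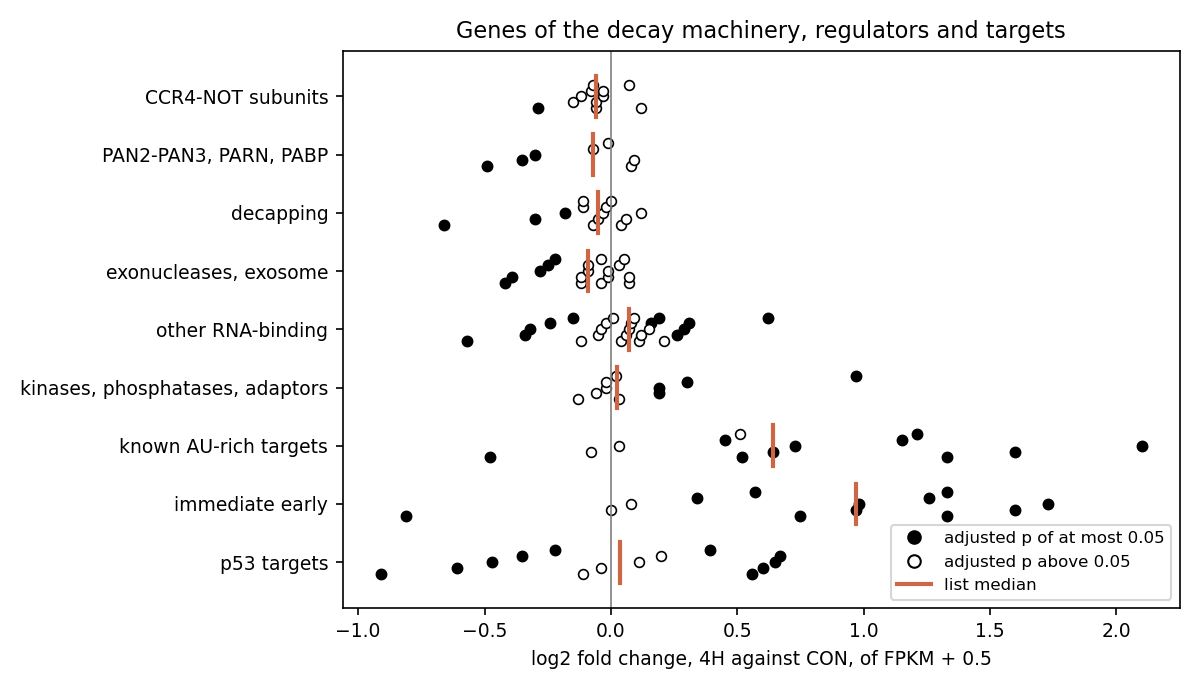
Log2 fold change of FPKM + 0.5, 4H against CON (x axis), of the tested genes of 9 lists (y axis); filled points passed the limma test (adjusted p up to 0.05) and the coloured line is the list median. The lists of decay enzymes lie near or below 0, with filled points on the left only, while known AU-rich targets (median 0.64) and immediate early genes (median 0.97, or 0.75 without Fos and Fosb) lie mostly to the right.

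Over the 11366 tested genes with an annotated 3′ UTR, the median change was higher the more heptamers the 3′ UTR held. The median log2 fold change was -0.033 over 7905 genes with none, 0.025 over 2240 genes with 1, 0.041 over 761 genes with 2 and 0.099 over 460 genes with 3 or more. The share of genes that rose went from 20.5% to 26.8%, 27.2% and 34.3%, and the share that fell from 26.9% to 19.9%, 18.1% and 10.9%. For the nonamer no such step was seen between 1 or more (937 genes) and 2 or more (203 genes). The median was 0.064 in both, with 31.8% and 32.5% higher and 15.3% and 15.8% lower. Genes with more heptamers have longer 3′ UTRs, with a median of 846 bases at 0 and 3342 bases at 3 or more. Among genes with 3′ UTRs under 1000 bases the medians were -0.048 at 0 and 0.144 at 3 or more heptamers (31 genes), at 1000 to 2999 bases -0.016 and 0.092 (164 genes), and at 3000 bases or more -0.008 and 0.092 (265 genes). Zfp36, Zfp36l1, Zfp36l2 and Elavl1 are among the 460 genes, and these values are a description over genes, which are not independent replicates.

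**Figure D5:**
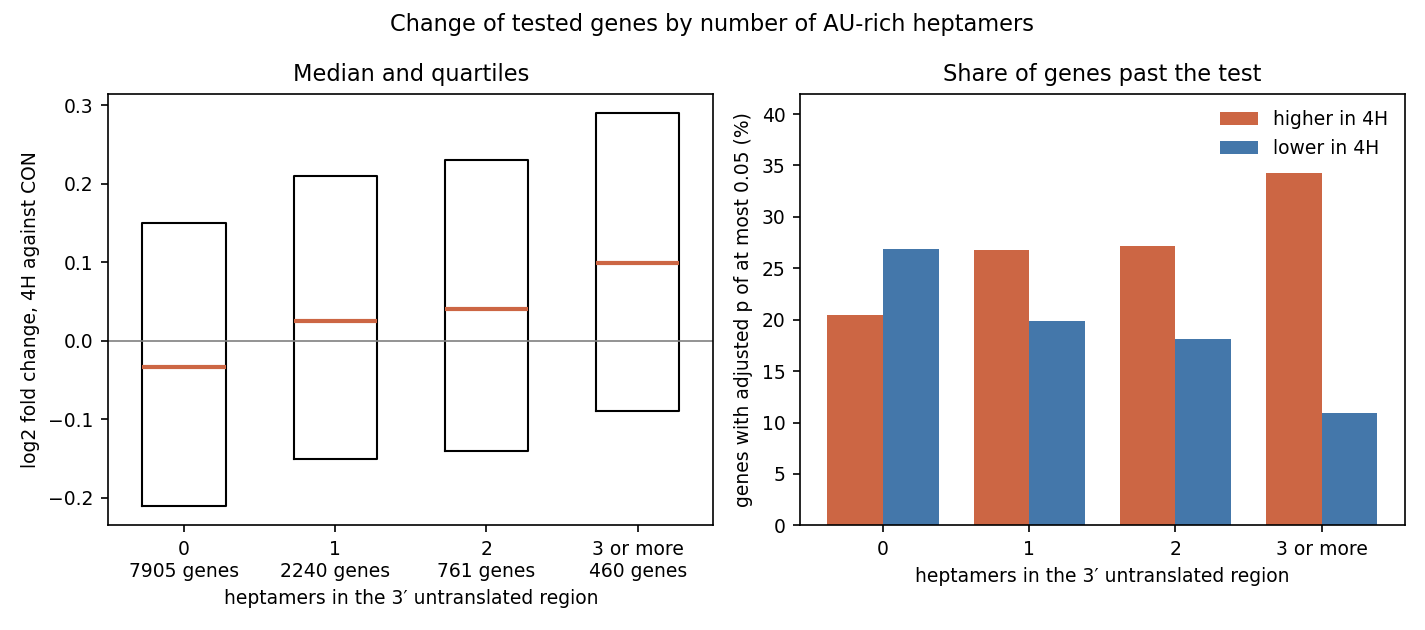
Tested genes grouped by the number of AU-rich heptamers in the 3′ UTR (x axis); on the left the median (line) and quartiles (box) of the log2 fold change, 4H against CON, and on the right the percentage of genes past the limma test (adjusted p up to 0.05) that were higher or lower in 4H. The median goes from -0.033 at 0 to 0.099 at 3 or more heptamers, and the share that fell from 26.9% to 10.9%.

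The myogenic messages known as targets of ZFP36 or KHSRP proteins did not move as 1 group. Myod1, the myogenic determination factor, was at 5.37, 4.48 and 5.55 FPKM in CON and at 18.5, 17.4 and 18.8 FPKM in 4H (log2 fold change 1.74, SE 0.08, adjusted p = 1.56e-06 in limma). Cdkn1a, the cyclin-dependent kinase inhibitor p21, rose from 58.4 ± 2.69 to 93.4 ± 5.12 FPKM (log2 fold change 0.67, SE 0.05, adjusted p = 1.74e-05 in limma). Myf5, the other determination factor, fell from 15.8 ± 0.851 to 9.82 ± 1.13 FPKM (log2 fold change -0.67, SE 0.08, adjusted p = 0.000347 in limma). Myog, the differentiation factor, was at 0.217 ± 0.0743 FPKM in CON and 0.0265 ± 0.0459 FPKM in 4H, under the filter. Myod1 had 1 heptamer in its 3′ UTR, and Cdkn1a, Myf5 and Myog had none.

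Zfp36 and Btg2 belong to the genes that serum and stress switch on within minutes, so the other immediate early genes were set beside them. Of 13, 10 rose, 1 fell and 2 did not pass, with a median of 0.97. Fos and Fosb passed the filter only through their 4H levels, and of the 11 others 8 rose and 1 fell, with a median of 0.75. The genes of the list that rose were 6 at a filter of 5 FPKM. Egr3, a zinc finger activator, went from 0.658 ± 0.0301 to 3.35 ± 0.255 FPKM (log2 fold change 1.73, SE 0.10, adjusted p = 5.16e-06 in limma), and its paralog Egr2 from 0.691 ± 0.0617 to 2.50 ± 0.181 FPKM (log2 fold change 1.33). Fosb, a partner of JUN, was at 0.295 ± 0.108 and 1.90 ± 0.0982 FPKM (log2 fold change 1.60). The nuclear receptor Nr4a1 rose from 4.04 ± 0.173 to 10.4 ± 1.39 FPKM (log2 fold change 1.26, SE 0.10, adjusted p = 2.09e-05 in limma). The stress factor Atf3 fell from 12.5 ± 0.723 to 6.92 ± 1.19 FPKM (log2 fold change -0.81, SE 0.11, adjusted p = 0.000521 in limma).

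As a gene induced by p53, Btg2 was also compared with 14 p53 targets. Of these 5 rose, 5 fell and 4 did not pass, with a median of 0.04 and no differentially expressed gene. Cdkn1a had the largest rise, and Sesn2, a stress sensor upstream of mTORC1, the largest fall, from 25.0 ± 0.825 to 13.1 ± 1.62 FPKM (log2 fold change -0.91, SE 0.08, adjusted p = 6.05e-05 in limma).

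The genes most like 3 members across the 6 libraries were found by Pearson's r of log2(FPKM + 0.5) over the 8622 genes whose mean reached 5 FPKM. For Zfp36 they were Ggh, a folate hydrolase (0.996), Prelid3b, a mitochondrial lipid transfer protein (0.994), and Rapgef6, a guanine nucleotide exchange factor (0.993), and 34 genes had an r of at least 0.95. For Btg2 they were the transcriptional repressor Bhlhe40 (0.999), Lysmd3 (0.999) and the coat protein gene Copb1 (0.998), with 851 genes at that r. For Tob1 they were the mitochondrial peptidase gene Pmpca (0.999), Ncdn (0.997) and the chaperone gene Hsp90aa1 (0.997), with 696 genes. Bhlhe40 was at 11.7, 12.9 and 12.0 FPKM in CON and at 23.4, 19.4 and 20.2 FPKM in 4H, with replicate 1 highest in 4H as for Btg2. An r over 6 libraries in 2 groups mostly carries the difference between the groups, and all 6 points share their libraries.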

How the data were processed

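RNA-seq values of 6 C2C12 libraries, 3 CON and 3 4H, were taken from 1 deposited table of FPKM with 1 column per library. The authors made strand-specific libraries from poly(A) RNA and deposited the FPKM values. The submitters' processing notes name the genome build mm10, and no aligner, counting tool or annotation is given in the sources used here. FPKM holds no read counts, so no counting error is given. Among genes under 0.1 FPKM the commonest ratio between libraries (11 to 21 genes) differed by at most 1.57%, as a measure of relative depth.

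FPKM takes no count model, so limma 3.58.1 in R 4.3.3 (lmFit, eBayes with a trend, two-sided) was fitted to log2(FPKM + 0.5) of genes whose mean was 0.5 FPKM or more, with Benjamini-Hochberg adjustment over all of them. The pseudocount understates changes of low genes. No replicate block was used. Replicate numbers are the biosample numbers of the label descriptions, and 4H replicates 2 and 3 are titled 4H3 and 4H4. Paralog ratios were tested by two-sided exact permutation over the 6 libraries. Gene coordinates, 3′ UTRs, overlaps and recurring 75-base stretches came from GENCODE M21 on GRCm38, and promoters (250 bases before to 50 after the start) from RefSeq on GRCm38.p6. Python 3.11.15 with matplotlib 3.10.9, numpy 2.4.6 and pandas 2.3.3 served for the tables and figures.

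The members and all lists were chosen with earlier results of these data known. The text names the 10 members, from each list every differentially expressed gene and the largest rise and fall past the adjusted p at a mean of 5 FPKM or more, and the 3 genes most like Zfp36, Btg2 and Tob1. Cnot1, Cnot7, Pabpc1, Parn, Mapk14, Mapkapk2, Ywhaz, Ccnd1, Vegfa, Plaur, Ccl2, Pim1, Il6, Tnf, Myog, Mex3b, Zc3h12c, Rc3h1, Samd4, Cpeb4, Celf1, Hnrnpd, Hnrnpdl, Elavl2, Elavl3, Elavl4, Btg4, Zfp36l3, Pax7, Des, Cdh15, Mymk, Ckm, Myh1, Myh3, Myh4, Ptprc, Adgre1, Epcam, Plin1, and the genes that overlap or share sequence with a named gene, were named after their values were seen, and the list counts without genes that passed the filter only through 4H were added then.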

Additional observations from a re-analysis of the deposited data

How the results depend on the processing

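The members' changes were recomputed with pseudocounts of 0.1 and 1, no filter, filters at 1 and 5 FPKM, a replicate block, no trend, quantile normalization, array weights, median-of-ratios scaling, rescaling to TPM and each library left out. The number of members past the adjusted p was 7 or 6 in all of these, and Zfp36l1, Zfp36l2, Khsrp, Btg3 and Tob1 kept direction and call in all 17, as did Btg2 in 16. Btg2 could not be fitted at a filter of 5 FPKM, which it does not reach. Zfp36 lost its call with no filter (0.36, adjusted p = 0.051 in limma) and ranged from 0.27 to 0.45 with 1 library left out. Btg1 changed sign to -0.002 with array weights, and ranged from -0.02 to 0.03 with 1 library left out, where it was -0.01 without CON replicate 2 and -0.02 without 4H replicate 3. The number of differentially expressed genes, 450, was 245 at a filter of 5 FPKM and 703 after rescaling to TPM, and 5409 genes passed the adjusted p alone. The cause of the count after rescaling was not tested. The number of pathway genes past the adjusted p was 58 of 123 tested, near the share of 46.7% over all 11593 tested genes. This number ranged from 51 of 108 at a filter of 5 FPKM to 61 of 125 after rescaling to TPM. The other RNA-binding genes that rose, 6, were 3 without CON replicate 2 or without 4H replicate 2, and the CCR4-NOT subunits that fell, 1, were 2 with a replicate block, with array weights or without 4H replicate 1. The immediate early genes that rose, 10, were 6 at a filter of 5 FPKM. No CCR4-NOT, PAN, PARN or PABP gene rose, but 1 CCR4-NOT gene did without CON replicate 2 and after rescaling to TPM, and 1 gene of the PAN, PARN and PABP list without CON replicate 3. The myogenic targets that fell, 1, were 2 with no filter. The direction of the 7 paralog ratios held in all 9 alternatives of each, with Zfp36 over Zfp36l2 ranging from 0.02 to 0.19 with 1 library left out. The median change of all tested genes, -0.01, was between -0.03 and 0.03 over all settings.

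With a replicate block, 452 genes were differentially expressed, 7 members and 54 pathway genes passed the adjusted p, and 3 other RNA-binding genes rose. Deviations of same-numbered libraries correlated at 0.025, -0.093 and -0.126 across genes, and no library correlated best with its own number, so the biosample numbers were not taken to pair the samples. The titles number 4H differently, and a block by title number, chosen after the data were seen, pairs C1 with 4H1 and C3 with 4H3, whose deviations correlated at 0.025 and 0.176. It gave 460 differentially expressed genes, 5 members and 46 pathway genes past the adjusted p, and 1 other RNA-binding gene that rose. Zfp36 (0.45, adjusted p = 0.0711 in limma) and Tob1 (0.20, adjusted p = 0.0701 in limma) then missed the threshold, as did Zc3h12a (0.55, adjusted p = 0.053 in limma), Zfp36l1 was at 0.74, and Btg1 was at -0.04.

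Depth is not held by FPKM, which limits the low genes most. With 3 libraries a group, no exact permutation p can fall under 0.1.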

Other observations

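Of 33 other RNA-binding proteins that act on 3′ UTRs, 25 were tested, with 6 higher, 5 lower and a median log2 fold change of 0.07. These counts are near the shares of all tested genes, 22.6% higher and 24.1% lower. Zc3h12a, the endonuclease Regnase-1 that cleaves inflammatory messages, rose from 5.39 ± 0.906 to 8.46 ± 0.549 FPKM (log2 fold change 0.62, SE 0.11, adjusted p = 0.00227 in limma). Its libraries were 6.42, 4.73 and 5.01 FPKM in CON and 8.05, 9.08 and 8.25 FPKM in 4H, with no overlap. Its paralog Zc3h12c, the roquin gene Rc3h1, the Smaug gene Samd4 and Cpeb4, which binds cytoplasmic polyadenylation elements, were higher by log2 fold changes of 0.26, 0.19, 0.31 and 0.29 (adjusted p = 0.0292, 0.0311, 0.00808 and 0.00571 in limma). Celf1, the remaining gene counted as higher, had a log2 fold change of 0.16 (adjusted p = 0.0251 in limma). The calls of Zc3h12c and Rc3h1 were lost in 7 alternative settings each, and that of Celf1 in 6. All of these calls were lost with a replicate block, without CON replicate 2 and without 4H replicate 2. With a block by title number Samd4 was the 1 gene of the 6 that still passed, with Zc3h12a at 0.55 (adjusted p = 0.053 in limma).

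Tia1, a translational silencer of AU-rich messages, had the largest fall among genes of this list whose mean reached 5 FPKM, from 17.8 ± 1.29 to 14.0 ± 1.23 FPKM (log2 fold change -0.34, SE 0.08, adjusted p = 0.00773 in limma). Its value is uncertain because it overlaps Gm44790 on the same strand. Hnrnpd, which encodes the AU-rich binding protein AUF1, fell from 103.2 ± 1.77 to 87.4 ± 1.54 FPKM and its paralog Hnrnpdl from 107.9 ± 0.892 to 86.3 ± 1.03 FPKM (adjusted p = 0.000312 and 3.69e-05 in limma). Mex3b was at 5.54 ± 0.105 FPKM in CON and 3.59 ± 0.619 FPKM in 4H. Of the other relatives of the members, Elavl2, Elavl3, Elavl4, Btg4 and Zfp36l3 were each at or below 0.285 FPKM in every library, and Elavl4 was at 0 in all 6.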
